A study of Mus musculus with 3 samples.

Results

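Expression of 10 genes that make, break down, bind or answer retinoic acid was examined in maxillary processes of E10.5 *Wnt1cre; Rosa26Dlx2/-* mouse embryos. The genes were chosen by name: *Rdh10*, *Aldh1a1*, *Aldh1a2*, *Aldh1a3*, *Cyp26a1*, *Cyp26b1*, *Cyp26c1*, *Crabp1*, *Crabp2* and *Rarb*. They are 10 of the 55401 genes counted, and all 10 passed the filter of a mean count of at least 10. In these embryos Cre recombinase made under *Wnt1* control opens a *Rosa26* CAG-LSL-Dlx2-3xFlag allele, so that *Dlx2* is overexpressed in cells derived from the neural crest. The dissected process also holds surface epithelium, vessels and blood, which do not come from the neural crest. There were 3 libraries of this single genotype (OE replicates 1, 2 and 3), each from its own RNA sample of intact maxillary prominences. The replicate numbers follow the order of deposition only, and whether a sample pooled embryos is not given in the sources used here. Wild-type libraries were not analysed here. No value below is a difference between genotypes, and each test compares libraries, whose spread may be technical.

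Retinoic acid is a small signal made from vitamin A. RDH10 oxidizes retinol to retinaldehyde, and the retinaldehyde dehydrogenases ALDH1A1, ALDH1A2 and ALDH1A3 oxidize retinaldehyde to retinoic acid. The cytochrome P450 enzymes CYP26A1, CYP26B1 and CYP26C1 break it down, CRABP1 and CRABP2 bind it in the cytoplasm, and nuclear receptors of the RAR family bind it together with RXR partners on DNA. In the embryonic head the signal is made locally around the eye and the nasal pits, and the facial processes are known for being harmed by too much or too little of it.

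*Rarb* and *Cyp26a1* are the textbook direct targets among the 10 genes, and the promoters of both held a match to the recognition sequence of the RAR and RXR pair. The promoter windows (RefSeq, GRCm38.p6, 250 bases before to 50 bases after a gene's start) were searched on both strands for 2 copies of a hexamer, AGGTCA or AGTTCA or GGGTCA or GGTTCA, in the same orientation with 5 bases between them. Such a repeat stood in 32 of 32817 windows of all genes (0.0975%). It was found in 2 of the 7 members that had a window (8 windows), *Rarb* and *Cyp26a1*. None of the 41 other retinoid genes that had one (62 windows) held it. Both genes were known beforehand as targets of this receptor pair, so these shares are no test of enrichment. The same hexamers with 2 bases between them stood in 0.268% of windows and with 1 base between them in 0.222%, in both cases in none of the 7 members. *Aldh1a3*, *Rdh10* and *Crabp2* are named only. The *Rarb* repeat lay 53 to 37 bases before the start on the gene's strand and is shown with 6 bases on each side, chr14:16575507-16575535, minus strand, where an exon of *Rarb* is also annotated. The *Cyp26a1* repeat lay 32 to 16 bases before the start, reads on the opposite strand, and is shown in the bases before the first annotated exon, chr19:37697558-37697797, plus strand. Both are printed in the direction of the gene with the repeat in capitals. A match of letters is a description and not evidence that a receptor was bound there.
Rarb: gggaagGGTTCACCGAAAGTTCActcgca
Cyp26a1: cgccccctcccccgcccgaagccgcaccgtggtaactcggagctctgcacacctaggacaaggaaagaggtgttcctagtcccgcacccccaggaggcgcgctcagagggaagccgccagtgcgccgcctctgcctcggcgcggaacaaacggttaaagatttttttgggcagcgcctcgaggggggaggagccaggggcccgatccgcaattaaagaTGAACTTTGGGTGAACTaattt

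Libraries held 36544554, 35351031 and 40057435 counts on genes in OE replicates 1, 2 and 3. *Dlx2* was at 235, 201 and 183 CPM, counts per 1000000 after TMM scaling, where the counts do not separate the transgene from the endogenous gene. Mesenchyme of the facial processes was well represented: 8 of its marker genes, *Prrx1* among them at 629, 582 and 419 CPM, summed to 1557, 1693 and 1751 CPM. Other properties of the libraries touch the results below. Replicate 1 was highest in 8 of 8 neuronal marker genes (summed 266 CPM, against 24.1 and 34.8) and lowest in 9 of 9 markers of optic vesicle and retina (117 CPM, against 318 and 353). Replicate 3 was highest in 6 of 7 markers of pigment epithelium (5.00, 33.9 and 157 CPM). Short genes were relatively high in replicate 3: its log2 ratio to the mean of the other libraries had a median of 0.64 for genes with up to 2000 exonic bases and of -0.56 for genes with over 8000. In replicate 1 the trend ran the other way, with medians of -0.45 and 0.40, and in replicate 2 these were -0.15 and 0.16. Replicate 1 also differed from the others in embryo sex, with *Xist* at 671 CPM against 0.309 and 0.557.

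All 10 genes were detected in every library, and most of them differed widely between libraries. Each of the 10 differed between libraries beyond counting noise (chi-square test with expected counts from the scaled libraries, Benjamini-Hochberg adjusted over 17115 genes; the highest adjusted p was 1.31e-07, for *Aldh1a2*). The same test called 81.5% of all genes tested, so that count alone does not set the 10 genes apart. The highest library was at least 2 times the lowest for 7 of the 10, against 34.8% of all genes tested, and the median coefficient of variation was 43.3% against 27.0%. With a library left out the count was smaller, at 4 without replicate 1 (18.3% of all genes tested then), 5 without replicate 2 (31.2%) and 3 without replicate 3 (7.24%). Without replicate 2 *Aldh1a2* was no longer beyond counting noise, and without replicate 3 *Rdh10* was not. Against the spread that all genes shared (a negative binomial test with a biological coefficient of variation of 0.371), 0 of 10 passed at the adjusted level and 2 had an unadjusted p under 0.05. These were *Aldh1a1* (p = 0.000631, adjusted p = 0.0628) and *Cyp26c1* (p = 0.0378, adjusted p = 0.656), by a chi-square test with edgeR's common dispersion that called 0.958% of all genes at the adjusted level and 6.81% at an unadjusted p under 0.05. Replicate 2 was the highest library for 5 members (17.2% of all genes tested), replicate 1 for 3 (39.6%) and replicate 3 for 2 (43.2%).

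**Figure D1:**
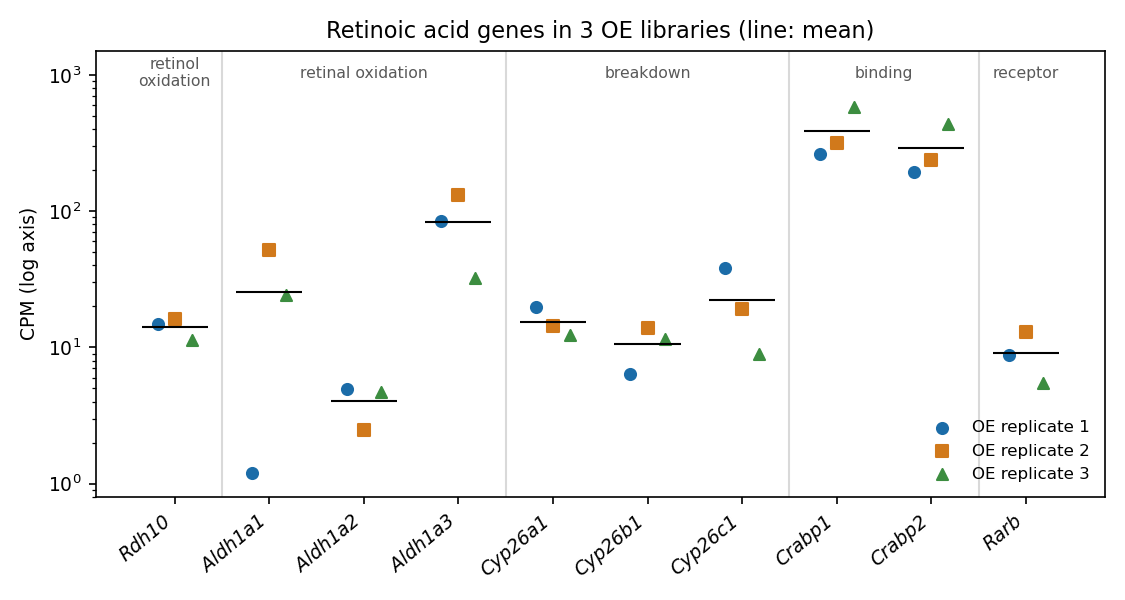
Level of each of the 10 genes in the 3 libraries, in CPM on a log axis, ordered by role; each point is 1 library. *Crabp1* and *Crabp2* stood between 193 and 583 CPM, and *Aldh1a1* spanned 1.19 to 51.6 CPM.

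Compared per length, as TPM (counts per kilobase of exons, scaled to a sum of 1000000 in each library), the binding proteins were far above the enzymes and the receptor. *Crabp1* had 1435 ± 338 TPM and *Crabp2* 649 ± 159 TPM (SD, n = 3). They were followed by *Aldh1a3* at 58.9 ± 37.4, *Cyp26c1* at 43.3 ± 35.6, *Cyp26a1* at 25.3 ± 11.0 and *Aldh1a1* at 15.5 ± 16.5 TPM. *Rdh10* at 10.9 ± 3.56, *Cyp26b1* at 6.07 ± 2.02, *Aldh1a2* at 5.61 ± 2.34 and *Rarb* at 5.59 ± 2.73 TPM were the lowest. The order of the lower members depended on the length used: by longest transcript *Aldh1a1* at 24.7 TPM stood above *Cyp26a1* at 21.2, and *Rarb* at 7.16 above *Cyp26b1* at 5.48 and *Aldh1a2* at 4.23. In the order per kilobase of exons only *Crabp1* over *Crabp2* and *Crabp2* over *Aldh1a3* had library ranges that did not overlap. *Rdh10* was above *Cyp26b1* within 3 of 3 libraries although their ranges overlapped, and the other neighbours kept the order in 2 of 3 libraries.

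*Rdh10*, whose product makes retinaldehyde, the substrate of the ALDH1A enzymes, was the steadiest of the 10 genes on the CPM scale. *Rdh10* (ENSMUSG00000025921, chr1:16105774-16133734, plus strand, in GRCm38 as all positions here) had 572, 579 and 424 counts, or 14.8, 16.3 and 11.3 CPM, a mean of 14.1 ± 2.58 CPM (SD, n = 3). Replicate 3 was lowest, and the highest library was 1.45 times the lowest (95% exact interval for counting error 1.27 to 1.64). Its coefficient of variation of 18.3% stood at the 32.1 percentile of all genes tested.

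Among the ALDH1A enzymes *Aldh1a3* had the most counts in every library, while *Aldh1a1* was scarce in 1 library and next after it in the others. *Aldh1a1* (ENSMUSG00000053279, chr19:20492715-20643465, plus strand) had 46, 1835 and 907 counts, or 1.19, 51.6 and 24.1 CPM (25.6 ± 25.2 CPM, SD, n = 3). Replicate 1 alone was low, above the limit of 0.0777 CPM that 3 counts set there, and the other libraries stood far above it. The fold between replicates 2 and 1 was 43.3 (95% exact interval 32.3 to 59.3), and the coefficient of variation stood at the 98.2 percentile of all genes tested. Without replicate 2 the mean was 12.6 CPM. Optic vesicle and retina markers were low in the same library as *Aldh1a1*, and 6 of the 9 were highest in replicate 2. *Rax*, a transcription factor of the early eye field, was at 0.233, 12.6 and 21.5 CPM, and *Tbx5*, a factor of the dorsal retina, at 0, 1.01 and 0.717 CPM. *Aldh1a1* is itself a known gene of the dorsal retina, and the part of eye tissue in its level was not tested. In bulk tissue, fewer cells of a type and less RNA per cell cannot be told apart.

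*Aldh1a3* (ENSMUSG00000015134, chr7:66390890-66427517, minus strand) did not follow *Aldh1a1*. It had 3257, 4659 and 1224 counts, or 84.4, 131 and 32.5 CPM (82.6 ± 49.2 CPM, SD, n = 3). Replicate 2 was again the highest, but replicate 3 was the lowest, by a fold of 4.03 between them (95% exact interval 3.78 to 4.29). The 5 markers of olfactory and nasal epithelium, a place where *Aldh1a3* is known to be expressed, summed to 37.3, 53.8 and 40.7 CPM. Of these 5 genes 3 were highest in replicate 2 and 2 in replicate 1, and *Six3*, which the optic vesicle list also holds, was at 4.02, 26.9 and 21.1 CPM. The 9 markers of surface and oral epithelium were summed at 474, 315 and 299.9 CPM. The 4 endothelial markers summed to 246, 278 and 191 CPM and the 5 lens markers to 4.64, 5.62 and 3.53 CPM, sums in the same order of libraries as *Aldh1a3*, *Rdh10* and *Rarb*. Of the single genes in these lists, 3 of 4 endothelial and 1 of 5 lens markers were highest in replicate 2, and 2 of 4 and 1 of 5 were lowest in replicate 3. Lens markers were scarce, with 0, 0 and 4 counts for *Cryaa* and 3, 0 and 0 for *Cryba1*. The sum of the macrophage markers, given at the end, had the same order of libraries too. The part of any of these tissues was not tested.

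*Aldh1a2* (ENSMUSG00000013584, chr9:71215789-71296243, plus strand), the main source of retinoic acid in the embryonic trunk, had the lowest mean of the 10 genes on the CPM scale, although *Aldh1a1* was below it in replicate 1. It had 190, 88 and 177 counts, or 4.92, 2.47 and 4.70 CPM (4.03 ± 1.35 CPM, SD, n = 3). Replicate 2, the highest library for the other ALDH1A genes, was the lowest for *Aldh1a2*, with a fold of 1.99 from highest to lowest (95% exact interval 1.54 to 2.59).

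Set per kilobase of exons, *Aldh1a3* made up 88.3%, 71.1% and 50.3% of the summed *Aldh1a* signal in replicates 1, 2 and 3 (69.9 ± 19.0%, SD, n = 3). *Aldh1a1* made up 1.17%, 26.2% and 34.9%, and *Aldh1a2* 10.51%, 2.74% and 14.8%. On this length *Aldh1a3* led in the 3 libraries, followed by *Aldh1a2* in replicate 1 and by *Aldh1a1* in replicates 2 and 3. With the longest annotated transcript as the length, *Aldh1a1* led in replicate 3, at 47.0% against 43.4% for *Aldh1a3*. Counts of *Aldh1a3* were 70.8, 2.54 and 1.35 times those of *Aldh1a1*, with 95% exact intervals of 53.0 to 96.9, 2.40 to 2.68 and 1.24 to 1.47 that do not overlap. Summed over the family the level was 77.3, 128 and 35.1 TPM.

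**Figure D2:**
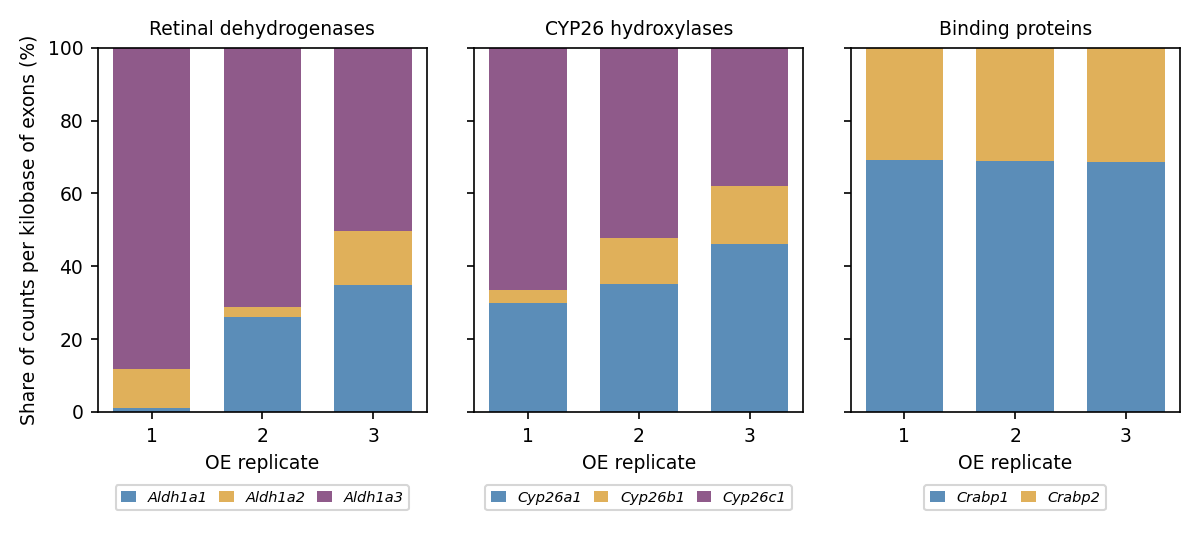
Shares of the summed signal per kilobase of exons within the *Aldh1a*, *Cyp26* and *Crabp* families, in percent, with 1 stacked bar per library. *Aldh1a3* lay between 50.3% and 88.3% of its family, *Cyp26b1* between 3.59% and 16.1%, and *Crabp1* between 68.7% and 69.0%.

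Of the enzymes that break retinoic acid down, *Cyp26c1* and *Cyp26a1* were the more abundant per length and *Cyp26b1*, on that scale, was the least in every library. *Cyp26c1* (ENSMUSG00000062432, chr19:37685581-37693398, plus strand) had 1487, 675 and 335 counts, or 38.5, 19.0 and 8.89 CPM (22.1 ± 15.1 CPM, SD, n = 3). Replicate 1 was high and replicate 3 low, with a fold of 4.33 (95% exact interval 3.85 to 4.89), at the 92.5 percentile of variation among all genes tested, and without replicate 1 the mean was 13.9 CPM. *Cyp26a1* (ENSMUSG00000024987, chr19:37697798-37701536, plus strand) lies close to it on the same strand. It had 761, 514 and 462 counts, or 19.7, 14.4 and 12.3 CPM (15.5 ± 3.83 CPM, SD, n = 3). Both neighbours were highest in replicate 1 and lowest in replicate 3, but the highest *Cyp26a1* library was only 1.61 times the lowest (95% exact interval 1.43 to 1.81). Their count ratio therefore passed through 1: *Cyp26c1* had 1.95, 1.31 and 0.725 times the counts of *Cyp26a1*, with 95% exact intervals of 1.79 to 2.14, 1.17 to 1.48 and 0.628 to 0.836.

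Some markers of surface and oral epithelium had the same order of libraries as *Cyp26c1*, and others did not. *Trp63*, the master factor of stratified epithelium, was at 55.4, 29.6 and 11.4 CPM, *Cdh1*, the epithelial cadherin, at 48.1, 32.5 and 13.4 CPM, and *Esrp1*, an epithelial splicing factor, at 45.3, 22.1 and 13.1 CPM. Of the 9 epithelial markers 6 were highest in replicate 1 and 5 lowest in replicate 3, while 3 keratin genes, *Krt5*, *Krt14* and *Krt18*, were highest in replicate 3, where *Cyp26c1* was lowest. The 8 neuronal markers were highest in replicate 1 as well, and 7 of them were lowest in replicate 2 and 1 in replicate 3. The part of these tissues in the *Cyp26c1* level was not tested.

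*Cyp26b1* (ENSMUSG00000063415, chr6:84571414-84593908, minus strand) ran the other way. It had 246, 496 and 436 counts, or 6.37, 13.9 and 11.6 CPM (10.6 ± 3.87 CPM, SD, n = 3). Replicate 1 was the low library and replicates 2 and 3 stood close together, with a fold of 2.19 from highest to lowest (95% exact interval 1.87 to 2.56). Per kilobase of exons *Cyp26c1* made up 66.5%, 52.3% and 37.9% of the family, *Cyp26a1* 30.0%, 35.1% and 46.0%, and *Cyp26b1* 3.59%, 12.6% and 16.1%. *Cyp26c1* led in replicates 1 and 2 and *Cyp26a1* led in replicate 3. The summed level was 124, 66.3 and 33.7 TPM, a fold of 3.68 with replicate 3 lowest, as it was for the *Aldh1a* sum. In CPM, which does not correct for length, the *Cyp26* sum was 64.6, 47.3 and 32.7, a fold of 1.97.

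**Figure D3:**
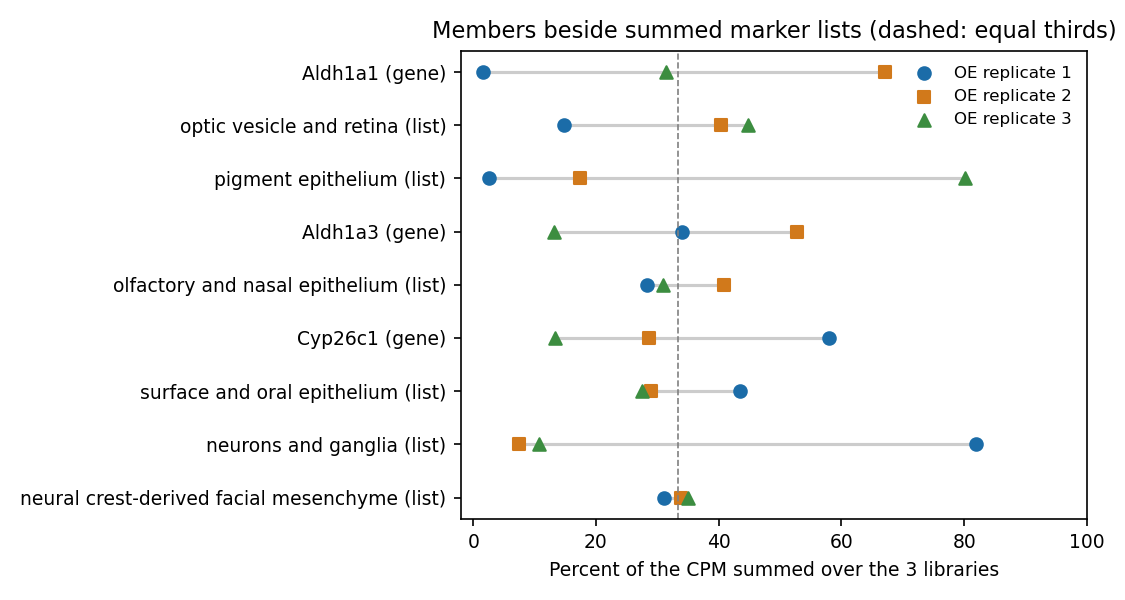
Share of the summed CPM of the 3 libraries that fell in each library, in percent, for *Aldh1a1*, *Aldh1a3*, *Cyp26c1* and for the marker lists. Replicate 1 held 1.55% of the *Aldh1a1* signal, 34.1% of the *Aldh1a3* signal and 58.0% of the *Cyp26c1* signal.

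*Crabp1* and *Crabp2*, the cytoplasmic binding proteins, were among the most abundant transcripts and moved together. *Crabp1* (ENSMUSG00000032291, chr9:54764748-54773110, plus strand) had 10076, 11276 and 21976 counts, or 261, 317 and 583 CPM (387 ± 172 CPM, SD, n = 3), and ranked 361 of all genes by mean CPM. *Crabp2* (ENSMUSG00000004885, chr3:87948666-87953376, plus strand) had 7447, 8382 and 16523 counts, or 193, 235 and 439 CPM (289 ± 131 CPM, SD, n = 3), and ranked 523. For both, replicates 1 and 2 lay close together and replicate 3 was highest, by a fold of 2.23 (95% exact interval 2.18 to 2.29) and of 2.27 (2.21 to 2.34) over replicate 1. The ratio of *Crabp1* to *Crabp2* counts was 1.35, 1.35 and 1.33, with 95% exact intervals of 1.31 to 1.39, 1.31 to 1.38 and 1.30 to 1.36 that overlap. Their proportion was the steadiest value found here: per kilobase of exons *Crabp1* made up 69.0%, 68.9% and 68.7% of the pair.

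Both genes are short, with 802 exonic bases in *Crabp1* and 1322 in *Crabp2*, and replicate 3 was the library in which short genes were high. The log2 ratio of replicate 3 to the mean of the others was 1.02 for *Crabp1* and 1.04 for *Crabp2*. After removal of a smooth curve fitted to exonic length and GC content in each library it was 0.09 for *Crabp1* and 0.63 for *Crabp2*. The height of *Crabp1* in replicate 3 was thus near that of genes of its length and base composition, and *Crabp2* stayed above them. The log2 ratio of replicate 1 went from -0.72 to -0.06 for *Crabp1* and from -0.74 to -0.41 for *Crabp2*. Among the longer genes, the log2 ratio of replicate 1 for *Aldh1a1* went from -4.82 to -5.05, and that of replicate 3 for *Aldh1a3* from -1.69 to -1.57. Smaller ratios of long genes changed more in proportion: that of replicate 3 for *Rdh10* went from -0.46 to -0.22 and for *Cyp26b1* from 0.29 to 0.12, and that of replicate 1 changed sign for *Rdh10* (0.13 to -0.02) and *Rarb* (0.06 to -0.14). For *Cyp26c1*, another short gene, the ratio of replicate 3 went from -1.60 to -2.36, away from zero, and for *Cyp26a1* from -0.46 to -0.90. With the trend removed the count of members with a range of at least 2-fold was 7 again, against 22.9% of all genes. *Crabp1*, *Crabp2* and *Rdh10* were then under that range, while *Aldh1a2* and *Cyp26a1* were over it.

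**Figure D4:**
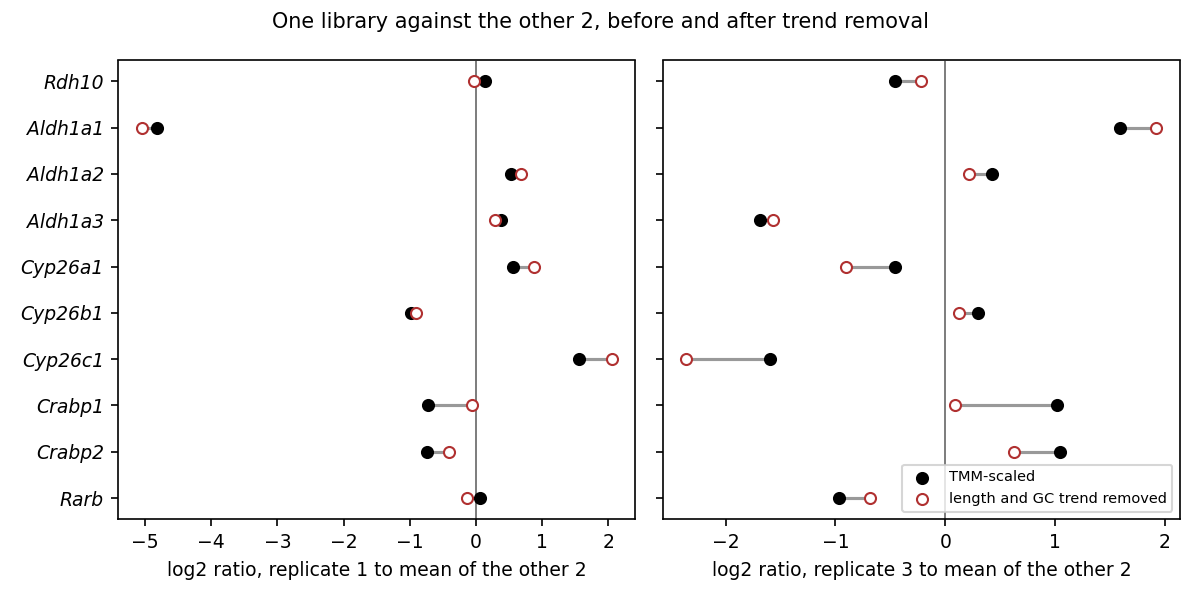
Log2 ratio of replicate 1 and of replicate 3 to the mean of the other libraries for each of the 10 genes, before and after removal of the trend on exonic length and GC content. *Crabp1* moved from 1.02 to 0.09 in replicate 3, while *Aldh1a1* stayed below -4.8 in replicate 1.

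*Rarb*, the receptor gene that is also a direct target of the signal, was low in every library and highest in replicate 2. *Rarb* (ENSMUSG00000017491, chr14:16430839-16819156, minus strand) had 339, 465 and 205 counts, or 8.78, 13.1 and 5.44 CPM (9.10 ± 3.82 CPM, SD, n = 3). The libraries stood apart from each other, with a fold of 2.40 from replicate 3 to replicate 2 (95% exact interval 2.03 to 2.84). Of its exonic bases 38.4% also lie in exons of *Top2b* and *Gm48162* on the opposite strand. The library kit does not mark strand and the strand setting of the counting is not given in the sources used here, so reads in these bases cannot be assigned to *Rarb* alone. No other member shared exonic bases with another gene. *Cyp26a1*, the other gene with the repeat printed above, was highest in replicate 1 and not in replicate 2.

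Within a role the order of libraries was shared by the *Crabp* pair and by *Cyp26a1* with *Cyp26c1*, and differed among the *Aldh1a* genes and between *Cyp26b1* and its relatives. On the CPM scale replicate 2 had the highest *Rdh10*, *Aldh1a1*, *Aldh1a3*, *Cyp26b1* and *Rarb*. Replicate 1 had the highest *Aldh1a2*, *Cyp26a1* and *Cyp26c1*, and replicate 3 the highest *Crabp1* and *Crabp2*. Per length *Rdh10* was highest in replicate 1, at 13.3, 12.5 and 6.78 TPM in replicates 1, 2 and 3. Replicate 3 was lowest for *Rdh10*, *Aldh1a3*, *Cyp26a1*, *Cyp26c1* and *Rarb*.

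The genes whose profile over the 3 libraries lay nearest to a member were looked up among the 11859 genes whose mean count reached 100. For *Aldh1a1* no gene lay within a distance of 0.2 on the log2 scale, and *Fgf15*, among the nearest, lay at 0.84. For *Aldh1a3* they were *Slc15a2*, *Ikzf1* and *Ank1*, with 2 genes within 0.2. For *Cyp26c1* they were *Gpm6b*, *Slc2a3* and *Lrp11*, with 19 within 0.2, for *Cyp26b1* *Bin2*, *Cited4* and *Myom1*, with 9, and for *Rarb* *Gm37963*, *Alox12* and *Thbs1*, with 15. The profiles of *Crabp1* (*Phpt1*, *Pop5* and *Tomm40*) and *Crabp2* (*Dynlrb1*, *Creld1* and *Ggt7*) were common ones, with 926 and 902 genes within 0.2. Over 3 libraries such nearness is a description only, and it is shared with every technical property of the libraries.

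The rest of the pathway was taken from a list of 53 genes grouped by role. Of these 35 passed the filter and 18 did not, among them *Adh4*, *Rdh9*, *Dhrs9* and *Rpe65*, which had no count in any library. Of the 35, 29 differed between libraries beyond counting noise (81.5% of all genes) and 15 had a range of at least 2-fold (34.8%). Replicate 3 was highest for 20 of them (43.2%), replicate 1 for 11 (39.6%) and replicate 2 for 4 (17.2%). Without replicate 3, 18 of the 34 genes then tested were beyond counting noise (48.8% of all genes).

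**Figure D5:**
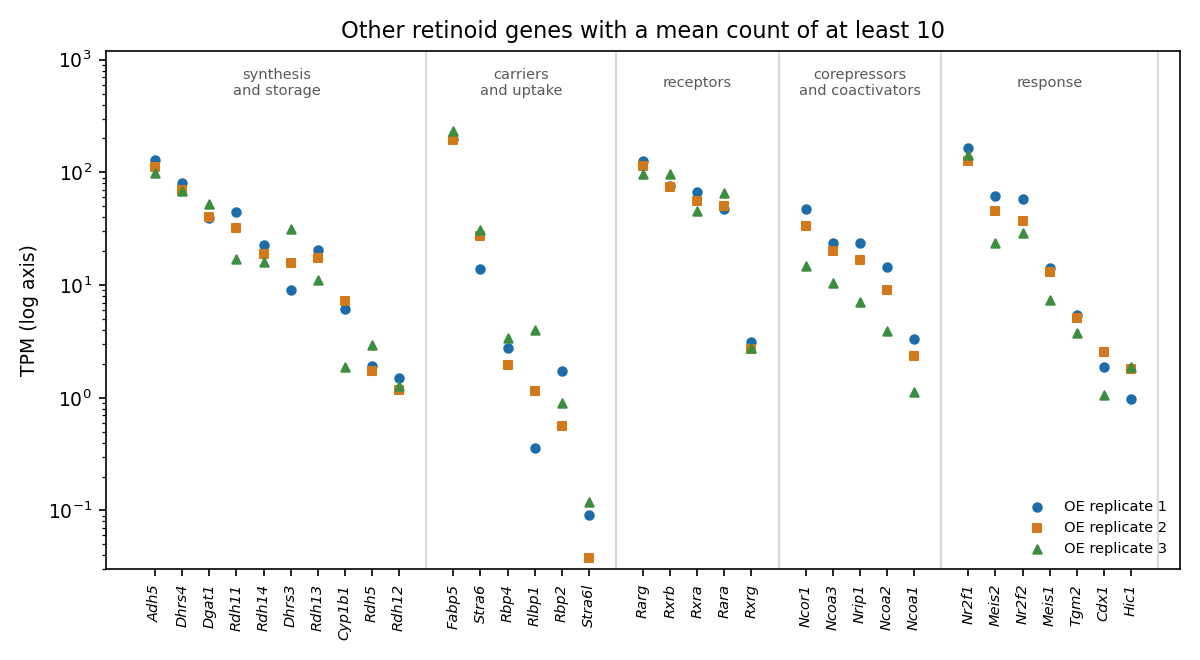
Level per length of other retinoid genes that passed the filter, in TPM on a log axis and grouped by role; each point is 1 library. Of the genes shown, *Fabp5* and *Nr2f1* were the most abundant, with means of 209 and 145 TPM.

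Among genes for synthesis and storage, 10 of 22 passed the filter and 8 were called (81.5% of all genes tested). *Adh5*, an alcohol dehydrogenase of broad expression, *Dhrs4*, a retinal reductase, and *Dgat1*, which can store retinol as ester, were the most abundant at 113 ± 14.5, 72.8 ± 6.20 and 44.2 ± 7.58 TPM (SD, n = 3). *Dhrs3*, which reduces retinaldehyde back to retinol and so opposes RDH10, was at 7.07, 14.4 and 37.0 CPM, highest in replicate 3 by a fold of 5.22. *Cyp1b1*, a P450 that can make retinoic acid without an ALDH1A enzyme, was at 9.61, 13.1 and 4.38 CPM, an order of libraries shared with *Aldh1a3*, *Rdh10* and *Rarb*. *Rdh5* and *Dgat1* had ranges of 2.29 and 2.00, and 25.6% of the exonic bases of *Rdh5* lie in exons of another gene on its strand.

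Of the 9 carriers and uptake genes 7 passed the filter, 6 of them were called (81.5% of all genes tested) and 6 had a range of at least 2-fold (34.8%). *Fabp5*, a fatty acid binding protein that can also carry retinoic acid, was highest at 209 ± 21.3 TPM. *Stra6*, the membrane receptor for retinol binding protein, was at 21.8, 50.1 and 72.0 CPM. *Rlbp1*, the retinaldehyde binding protein of retina and pigment epithelium, was at 0.285, 1.07 and 4.75 CPM. Both *Stra6* and *Rlbp1* were lowest in replicate 1 and highest in replicate 3, as was the sum of the pigment epithelium list (5.00, 33.9 and 157 CPM). The optic vesicle list was lowest in replicate 1 too, but 6 of its 9 genes were highest in replicate 2. The part of eye tissue was not tested. With the length and GC content trend removed, the log2 ratio of replicate 3 was still 1.00 for *Stra6*, 1.66 for *Dhrs3* and 2.73 for *Rlbp1*. *Rbp4*, *Rbp2* and *Stra6l* had ranges of 2.25, 2.61 and 4.02 at levels under 1 CPM in the lowest library, and *Rbp2* was not called (adjusted p = 0.132, chi-square test).

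Of the 5 other receptors 4 were more abundant per length than *Rarb*, and the exception was *Rxrg* at 2.87 ± 0.223 TPM. Their coefficients of variation ran from 1.93% to 38.9% on the CPM scale, against 42.0% for *Rarb*. *Rarg* was at 111 ± 14.3 TPM, *Rxrb* at 81.9 ± 12.9 and *Rxra* at 55.6 ± 10.6 (SD, n = 3). Of the 5 receptors 3 were called, against 81.5% of all genes tested. Only *Rara*, at 55.8, 68.2 and 114 CPM, had a range of at least 2-fold (34.8% of all genes tested). On the CPM scale replicate 3 was highest for all 5 receptors (43.2%). With the length and GC content trend removed, the log2 ratio of replicate 3 was 0.56 for *Rara* and 0.43 for *Rxrb* but -0.17 for *Rarg*, -0.14 for *Rxra* and -0.03 for *Rxrg*, and per length these last were highest in replicate 1. The 6 corepressors and coactivators were all called (81.5% of all genes tested) and all highest in replicate 1 (39.6%). *Ncor1* was at 31.8 ± 16.3 TPM and *Ncoa3* at 17.95 ± 6.83, and *Ncor1*, *Nrip1* and *Ncoa2* had ranges of 2.14, 2.25 and 2.48. The log2 ratio of replicate 3 was -0.95 for *Ncor1*, -1.03 for *Nrip1* and -1.08 for *Ncoa2* and became -0.43, -0.33 and -0.51 with the trend removed.

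Of 11 genes known to answer retinoic acid in some tissue, 7 passed the filter and 6 were called (81.5% of all genes tested). *Nr2f1* and *Nr2f2*, orphan nuclear receptors of facial mesenchyme, were at 145 ± 19.8 and 41.2 ± 15.1 TPM, and *Meis2*, a homeodomain factor, at 43.7 ± 18.9 TPM (SD, n = 3). Only *Hic1*, at 0.985, 2.11 and 2.79 CPM, had a range of at least 2-fold (34.8% of all genes tested). *Hoxb1*, a hindbrain target of the signal that is absent from the Hox-negative crest of the face, had 9, 3 and 1 counts.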

How the data were processed

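RNA-Seq of 3 OE libraries (poly-A selected, paired-end reads) was analysed as raw counts per gene, which the authors deposited as whole numbers without normalization. The submitters' processing notes name FastQC, STAR 2.7.3a, HTSeq 0.12.4 and mm10. The annotation release and strand setting are not given in the sources used here. Of 55401 gene identifiers, 55141 matched GENCODE M21 (GRCm38) without regard to the version and 260 did not. Reads on no gene (4.27% to 5.03%), on several genes (6.10% to 6.96%) and not uniquely placed (3.08% to 5.19%) were left out.

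CPM used TMM factors of 1.06, 1.01 and 0.940 (edgeR 4.0.16), and TPM used the union of exons. For counting noise, each of the 17115 genes whose mean count reached 10 was given a chi-square test on 2 degrees of freedom, with Benjamini-Hochberg adjustment and a threshold of 0.05. Because this test compares counts of single libraries, its p-values describe these libraries and not a condition. The common dispersion came from edgeR, and the trend on exonic length and GC content from mgcv 1.9.3 with log2 CPM at a prior count of 2. Intervals (95%, exact) and the limit of 3 counts (0.0777 to 0.0843 CPM) cover counting error only. The steps ran in Python 3.11.15 with pandas 2.3.3, scipy 1.17.1, numpy 2.4.6 and matplotlib 3.10.9, and in R 4.3.3. The chi-square step was tested on simulated data.

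The 10 genes and all lists were chosen with earlier results of these data known. The text names the 10 genes, and of the 53 other retinoid genes the 3 highest in mean TPM per role and each tested gene with a range of at least 2-fold. It also names the 3 nearest profiles (Euclidean distance on centred log2 CPM) of each member with such a range and a mean count of at least 100, and marker genes as list sums with the defining genes of a list that moved with a member. *Hoxb1*, the genes at 0, *Prrx1*, *Rxrg*, *Six3*, *Gsc*, the keratins and *Xist* were named after their values were seen. A small number of genes that this rule would name are left out of the text and plots. The alternatives were DESeq2 1.42.0 size factors, total counts, other filters, another prior count, another gene length, a common negative binomial dispersion, removal of the trend, and leaving out each replicate in turn.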

Additional observations from a re-analysis of the deposited data

How the results depend on the processing

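Of 248 values recomputed under an alternative, over 56 results, 237 moved by less than 1 SD between libraries or, for counts, stayed within 1.5 times, and 11 moved further. No log2 ratio of at least 1 in size changed sign, but 3 small ones did with the length and GC content trend removed: *Cyp26a1* in replicate 2 (-0.11 to 0.02), *Rdh10* in replicate 1 (0.13 to -0.02) and *Rarb* in replicate 1 (0.06 to -0.14). Means with a wide SD moved by over 1.5 times inside it: *Aldh1a1* went from 25.6 to 12.6 CPM and from 15.5 to 6.57 TPM without replicate 2, and to 24.7 TPM by longest transcript, and *Cyp26c1* from 22.1 to 13.9 CPM and from 43.3 to 23.7 TPM without replicate 1. With the common negative binomial dispersion in place of counting noise, 0 of the 10 genes were called, and with a replicate left out 9 to 10 were. The count of members with a range of at least 2-fold, 7 as reported, was 3 to 5 with a replicate left out, at 4 without replicate 1 and 3 without replicate 3, where a range over fewer libraries is smaller by construction. It was 8 with DESeq2 size factors. The other retinoid genes beyond counting noise, 29 as reported, were 18 to 27 with a replicate left out, the 18 without replicate 3. Shares within a family depended on gene length. The *Cyp26b1* share was 24.9% with no length correction against 10.7%, and 8.07% to 14.3% with a replicate left out. The *Crabp1* share was 60.9% by longest transcript and 57.3% with no length correction against 68.9%, and its mean was 1086 TPM by longest transcript. The mean *Aldh1a3* share was 65.3% by longest transcript, where *Aldh1a1* led in replicate 3 with 47.0% against 43.4%, and 60.7% to 79.7% with a replicate left out. No paired analysis was possible because the series holds 1 group here. The smallest count of a member was 46, so depth does not limit detection. Counting error does limit the 2-fold range of *Aldh1a2* and *Cyp26b1*, whose 95% exact intervals were 1.54 to 2.59 and 1.87 to 2.56. The other limits lie in 3 samples of 1 genotype, in marker lists that differ between the libraries, and in the length trends of replicates 1 and 3.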

Other observations

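The remaining marker lists had these summed levels in OE replicates 1, 2 and 3. The 5 mandibular genes, which mark the distal part of the first arch, summed to 34.3, 35.6 and 52.9 CPM, and *Gsc* among them was at 1.37, 2.30 and 15.5 CPM. The 4 glial genes summed to 61.7, 15.1 and 18.3 CPM, highest in the same library as the neuronal genes. The 3 globin genes summed to 1498, 2748 and 3428 CPM, and the 4 macrophage genes to 20.4, 20.6 and 17.1 CPM.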
